A study of Phyllostachys violascens with 18 samples.

Results

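Iron handling genes were followed in leaves of a bamboo, Phyllostachys violascens, as the variant ‘Flavistriatus’ and as the typical plant. Members were the genes whose deposited description named nicotianamine, metal-nicotianamine or yellow stripe transporters, deoxymugineic acid, ferritin, ferric reductases or ferric reduction, vacuolar iron transporters, iron-sulfur cluster proteins, iron-regulated proteins or iron-related transcription factors. This gave 54 of 42520 genes, with 28 yellow stripe-like (YSL) transporters, 9 vacuolar iron transporters, 4 nicotianamine synthases, 4 nicotianamine aminotransferases, 4 genes of deoxymugineic acid, 2 ferric reductases, 2 ferritins and 1 iron-sulfur cluster protein. No description named an iron-regulated protein or an iron-related transcription factor. The names were given to the bamboo genes from described genes of other plants, mostly grasses.

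The 6 groups were young, immature and mature leaves of the variant and the same stages of the typical plant, with 3 libraries each, all from plants grown in a greenhouse. Sample titles name leaves but the tissue label gives culms, and groups here follow the titles. Plant age is not among the labels, and neither is whether the 3 libraries within a group were separate plants, so p-values cover no more than the scatter among these libraries, and that may be technical. Total counts per library ran from 30268130 to 58374889.

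Grasses take up iron from the soil with mugineic acids, small chelators that are made from methionine by way of nicotianamine. Nicotianamine itself also binds iron, manganese, zinc and copper inside the plant and carries them through the veins, and YSL proteins move such complexes across membranes. In leaves most iron goes to the chloroplasts, where ferric reductases supply it and ferritin stores a surplus, and the vacuole is the other store. In bulk tissue, fewer cells of a type and less RNA per cell cannot be told apart.

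Levels are given as deposited FPKM, which is a fragment rate scaled by transcript length and library size, and can be compared between genes. Differences are log2 fold changes of the estimated counts with their standard error (SE), from edgeR's quasi-likelihood test with Benjamini-Hochberg adjustment over 37595 tested genes, and a gene was called at an adjusted p under 0.05. FPKM carry no TMM factor (the scaling by the trimmed mean of M values used in the test), and in immature and mature leaves a ratio of variant to typical FPKM therefore lies above the tested fold. Of the 54 members, 40 had enough counts to be tested. The 14 untested members comprised 9 YSL genes, 2 vacuolar iron transporters, 1 nicotianamine synthase, 1 ferric reductase and 1 gene of deoxymugineic acid, and none of them reached more than 0.685 FPKM in any library.

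The summed FPKM of antenna proteins, which hold chlorophyll, moved with plant type and stage. In young leaves 0 of 31 tested antenna genes were called between plant types. The sum there was 1858 to 3263 FPKM in variant libraries, against 3807 to 5195 FPKM in typical ones, without overlap. It lay between 4212 and 4379 in variant immature leaves, against 34002 to 40373 in typical immature leaves, and the 33 genes of the list had 2 at 0 in either group. In mature leaves it was 10096, 12099 and 2054 in variant libraries 1 to 3, against 17148 to 20032 in typical libraries, so that variant mature library 3 stood apart. Sums of 28 genes of dividing cells were 171 to 344 FPKM in variant young leaves and 282 to 388 in typical young leaves, and between 28.7 and 63.6 in all older libraries. The 9 secondary wall genes summed to 37.2, 53.6 and 2.65 FPKM in variant mature libraries 1 to 3, against 2.90 to 4.27 FPKM in typical ones. The part of these differences in the results below was not tested.

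Ferritin, a ferric reductase and a YSL6 gene made up most of the iron handling transcripts. The ferritin PH02Gene47163, the ferric reduction oxidase 7-like gene PH02Gene02137, the YSL6 gene PH02Gene16058 and the second ferritin PH02Gene17495 together held between 68.6% and 88.4% of the summed FPKM of the 54 members in each library. These were also the 4 members with a mean of 10 FPKM or more over the 18 libraries, and 25 members had a mean of 1 FPKM or more. The sum over members was 226 ± 13.5 FPKM in variant young leaves, 490.1 ± 11.3 in variant immature leaves and 480.3 ± 57.4 in variant mature leaves (SD, n = 3 each). In the typical plant it was 193 ± 11.3 FPKM when young and 818 ± 84.1 FPKM when mature (SD, n = 3 each), with 659.8, 480.02 and 694.1 FPKM in the immature libraries.

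**Figure D1:**
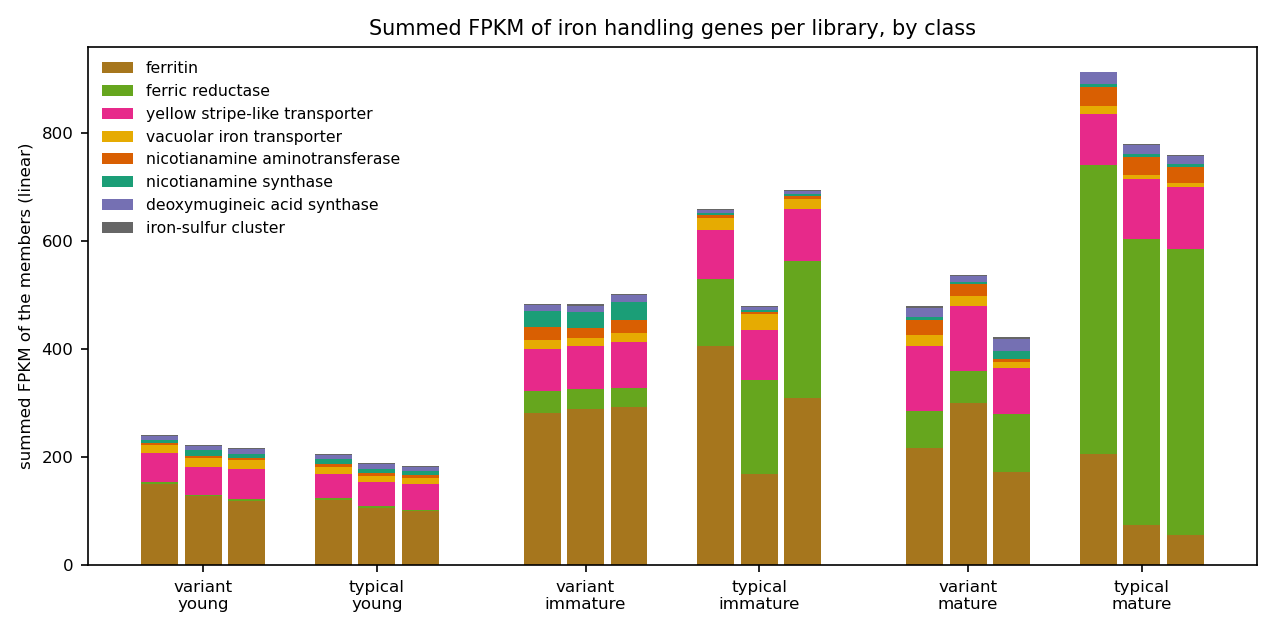
Stacked bars show the summed FPKM of the 54 iron handling genes in each of the 18 libraries, by class, with variant groups left of typical groups at each stage. Ferritin makes up the largest block in variant libraries of all stages, while in typical mature leaves the ferric reductase block is the tallest, at 529.5 to 535 FPKM.

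Young leaves of the plant types were called different in none of the 40 tested members. Over all tested genes, 0.149% were called higher and 0.0213% lower in variant young leaves. An unadjusted p under 0.05 was reached by 2 members, limma on FPKM called 0, and DESeq2 called 1, the nicotianamine aminotransferase PH02Gene37749, which was listed at 0 in the 3 typical libraries and had at most 0.0828 FPKM in variant ones. The median log2 fold change was 0.13 over the 36 members with counts in both groups, and -0.01 over all such genes.

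In immature leaves a nicotianamine synthase and a nicotianamine aminotransferase were present in the variant and near or at 0 in the typical plant, while the ferric reductase and 7 YSL genes were lower in the variant. Of the 40 members, 5 were called higher and 11 lower in variant leaves, or 16 in all, beside 21.7% and 23.1% of all tested genes. The 5 higher members were 1 nicotianamine synthase, 2 aminotransferases, 1 YSL gene and 1 vacuolar iron transporter. The 11 lower members were 7 YSL genes, 2 vacuolar iron transporters, the ferric reductase and 1 aminotransferase. The median log2 fold change was -0.43 over the 32 members with counts in both groups, and -0.04 over all such genes. With no scaling beyond library totals, where the median of all genes lay at 0.43, the split was 10 higher and 7 lower.

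Mature leaves showed fewer differences. Of the 40 members, 5 were called higher and 3 lower in variant mature leaves, beside 14.9% and 9.65% of all tested genes, and without scaling the split was 8 and 1. The median log2 fold change was 0.04 over 32 members, against 0.06 over all genes. The calls of immature and mature leaves had 3 higher and 2 lower members in common. These comparisons share no libraries but come from one fit with a shared estimate of the spread. In the other direction, 1 member was lower in immature and higher in mature leaves of the variant. The same overlap was not counted over all tested genes, so it cannot be read as particular to the members. A fit of the mature groups alone called 2 members.

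**Figure D2:**
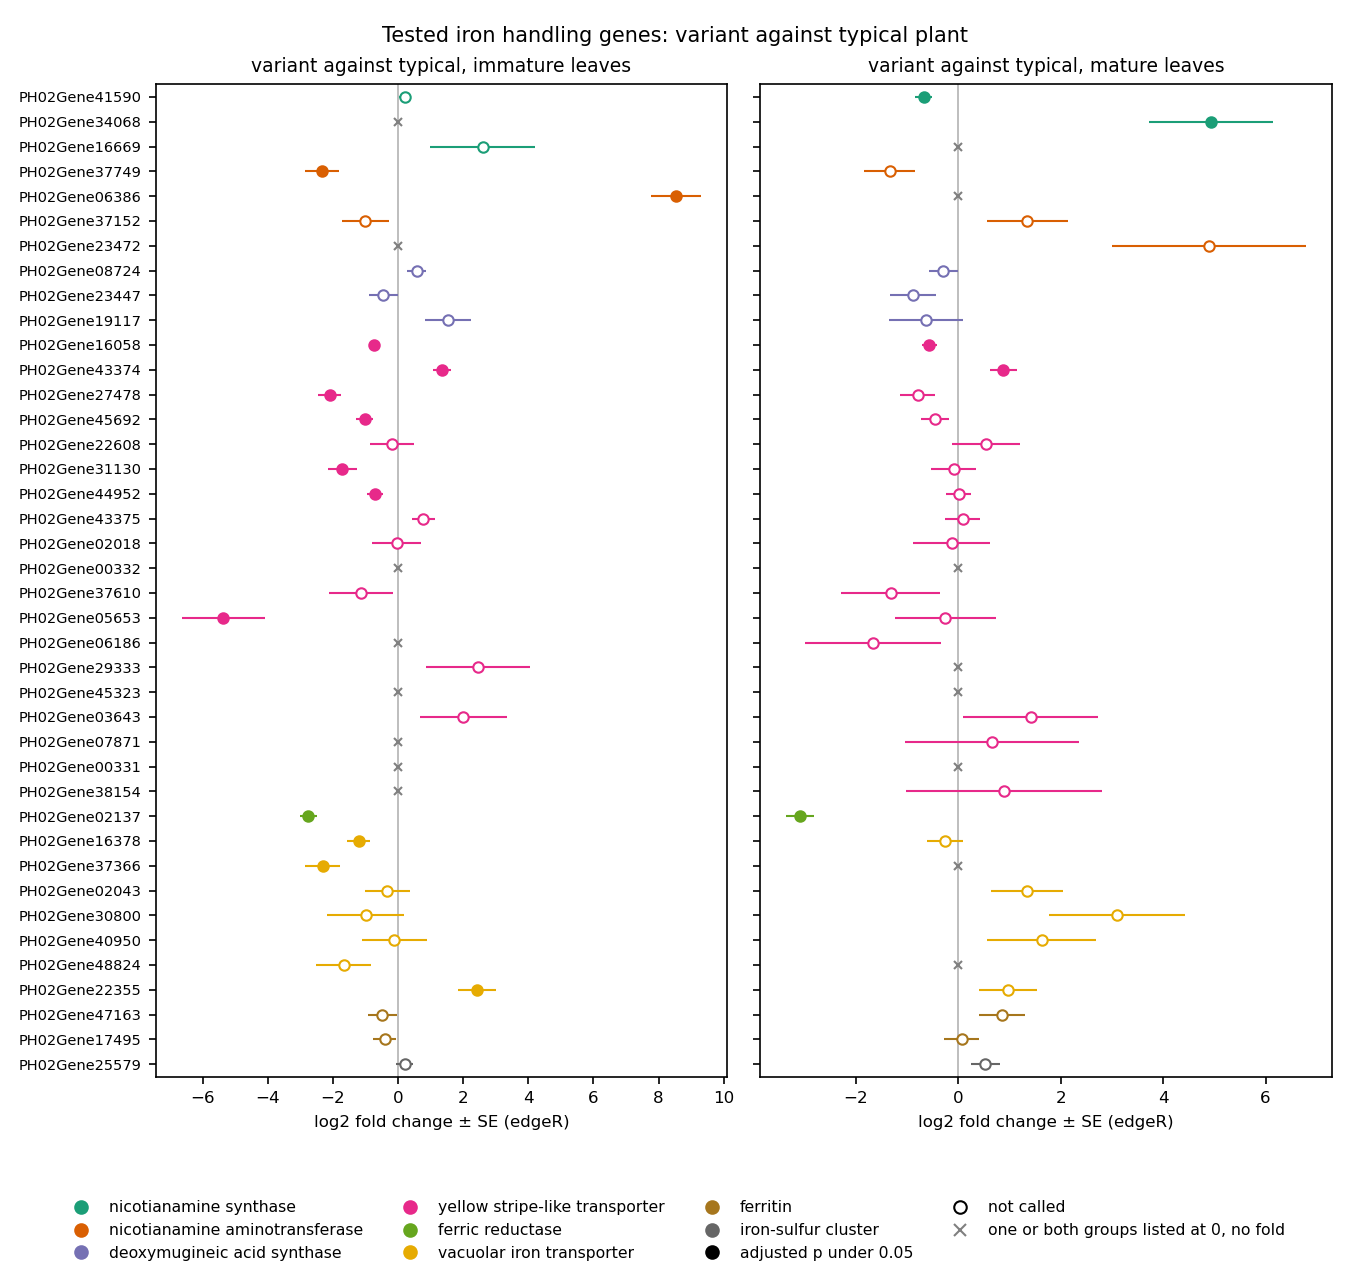
Points are log2 fold changes of the variant over the typical plant ± SE for the 40 tested members in immature (left) and mature (right) leaves, colored by class, and filled where the adjusted p was under 0.05. Members are ordered by class and mean FPKM, the dioxygenase-like gene PH02Gene08724 stands in the deoxymugineic acid class, and crosses mark the 8 members of each comparison that have no fold because a group was listed at 0. In immature leaves the aminotransferase PH02Gene06386 lies farthest to the right and the YSL8 gene PH02Gene05653 farthest to the left.

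Nicotianamine synthase joins molecules of S-adenosylmethionine to nicotianamine, and 3 of its 4 genes were tested. The nicotianamine synthase 3 gene PH02Gene34068 (scaffold 19, 28545703 to 28547166, minus strand) had 24.2, 23.5 and 25.9 FPKM in variant immature leaves, while every typical immature library listed it at 0 (adjusted p = 1.31e-04). The groups did not overlap. The 3 variant immature libraries also lay close together over all genes with a mean count of at least 100, with pairs at 11.7 to 12.7 times the sampling noise. Pairs of typical immature libraries lay at 120 to 157 times, and whether the closeness is technical was not tested. Mature leaves had 1.91, 0.571 and 10.03 FPKM in the variant, against 0.301, 0.0314 and 0 FPKM in the typical plant. All variant values lay above the typical ones, with the highest in library 3, the one with the low antenna sum. The log2 fold change was 4.94 ± 1.204 (adjusted p = 0.0100), and the call was lost when only the mature groups were fitted (adjusted p = 0.102). In young leaves it had 0.868, 1.70 and 0.934 FPKM in the variant, against 0.890, 0.260 and 0.147 FPKM in the typical plant, and the groups overlapped.

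The stage course of PH02Gene34068 ran in opposite directions in the plant types. Between young and immature leaves it rose in the variant, with a log2 fold change of 4.50 ± 1.08 (adjusted p = 0.00316), and fell in the typical plant to the listed 0 (adjusted p = 0.00997). The difference between the plant types changed between young and immature leaves (adjusted p = 0.00223) and again between immature and mature leaves (adjusted p = 0.0436).

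The other tested nicotianamine synthases were not called between plant types in immature leaves. The second nicotianamine synthase 3 gene, PH02Gene16669, had 0.593, 1.52 and 2.31 FPKM in variant immature leaves, against 0.480, 0.0557 and 0 FPKM in typical ones, which did not overlap but was not called (adjusted p = 0.204), while limma on FPKM called it with either pseudocount (adjusted p = 0.00143 and 0.00593). It was higher in immature than in young leaves of the variant by 4.36 ± 1.75 (adjusted p = 0.0488). The nicotianamine synthase 2-like gene PH02Gene41590, which was present at all stages, had 4.96, 5.25 and 5.43 FPKM in variant immature leaves, against 3.16, 2.97 and 3.78 FPKM in typical ones. Every variant library lay above the typical ones, but relative to the other genes the difference was 0.20 ± 0.17 (adjusted p = 0.335), and it was called higher without scaling (0.73, adjusted p = 0.00230). In mature leaves the order of the libraries was the opposite, with 4.48, 4.56 and 4.203 FPKM in the variant, against 5.38, 5.82 and 5.75 FPKM in the typical plant. These groups did not overlap, and the log2 fold change was -0.67 ± 0.17 (adjusted p = 0.00894), a call that was lost without scaling (-0.33, adjusted p = 0.143). In the typical plant this gene fell between young and immature leaves by 0.70 ± 0.17 on the log2 scale (adjusted p = 0.00192) and rose by 0.68 ± 0.17 to mature leaves (adjusted p = 0.00622). The sum over the 4 nicotianamine synthase genes lay between 30.1 and 33.6 FPKM in variant immature leaves, against 3.03 to 3.78 FPKM in typical ones.

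Nicotianamine aminotransferase converts nicotianamine to the keto acid from which deoxymugineic acid is made, a step known from grasses. Its 4 genes were all tested, and each had its own stage course. The aminotransferase A gene PH02Gene06386 (scaffold 7, 51537291 to 51540627, minus strand) had 20.7, 15.7 and 20.6 FPKM in variant immature leaves, against 0.0477, 0 and 0.0536 FPKM in typical ones. Every variant library was above 15 FPKM and every typical one below 0.1 FPKM, a log2 fold change of 8.54 ± 0.77 (adjusted p = 3.37e-06). In mature leaves it had 0.969, 1.54 and 0.272 FPKM in the variant, against a listed 0 throughout the typical plant (adjusted p = 2.03e-04). In the variant it rose by 5.88 ± 0.65 between young and immature leaves (adjusted p = 7.00e-06) and fell by 4.27 ± 0.60 to mature leaves (adjusted p = 3.04e-04), while in the typical plant it fell by 2.58 ± 0.70 between young and immature leaves (adjusted p = 0.00627). The change to immature leaves differed between the plant types by 8.46 ± 0.92 (adjusted p = 6.69e-05). The typical fall took place at a low level and ended near 0, so its size is uncertain. All 4 aminotransferases together had 5.36 to 5.49 FPKM in typical young leaves, most of it from PH02Gene37152.

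A second aminotransferase gene had the opposite pattern between plant types. PH02Gene37749 had 1.14, 0.688 and 0.865 FPKM in variant immature leaves, against 4.25, 1.78 and 3.93 FPKM in typical ones, with no overlap and a log2 fold change of -2.34 ± 0.53 (adjusted p = 0.00302). It reached 22.8, 18.4 and 6.55 FPKM in variant mature leaves, against 35.7, 32.1 and 29.3 FPKM in typical ones. These groups did not overlap either, with the lowest value again in variant library 3, but the difference of -1.34 ± 0.49 missed the threshold (adjusted p = 0.0639). The gene rose at each step in the variant, by 4.47 ± 0.71 from young to immature leaves (adjusted p = 1.45e-04) and by 4.198 ± 0.56 to mature leaves (adjusted p = 2.40e-04). In the typical plant it was listed at 0 in young leaves and called higher in immature ones (adjusted p = 8.47e-07), with a further rise of 3.20 ± 0.53 to mature leaves (adjusted p = 6.36e-04).

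The remaining aminotransferases were low. PH02Gene37152 was highest in young leaves, at 3.84, 3.15 and 2.89 FPKM in the variant and 5.05, 5.09 and 5.11 FPKM in the typical plant. It was not called between plant types, and it fell by 3.56 ± 0.82 on the log2 scale from immature to mature typical leaves (adjusted p = 0.00434). PH02Gene23472 had 0.304 to 0.345 FPKM in variant immature leaves and was listed at 0 in typical ones (adjusted p = 0.0310), a call that was lost when any of the 3 typical immature libraries or variant immature library 2 or 3 was left out (adjusted p from 0.0501 to 0.0749). Its highest value in any library was 1.88 FPKM, in variant mature leaves, where it was not called between plant types.

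Deoxymugineic acid synthase makes deoxymugineic acid, the first of the grass chelators, and the dioxygenase known from barley adds a hydroxyl group to it. None of the 3 tested genes of this class was called between plant types. The dioxygenase-like gene PH02Gene08724 was the most abundant of them, with 8.73, 7.87 and 9.88 FPKM in variant immature leaves, against 4.19, 5.17 and 3.62 FPKM in typical ones. The groups did not overlap, but relative to the other genes the difference was 0.58 ± 0.29 (adjusted p = 0.117), and it passed without scaling (1.09, adjusted p = 0.00732) and in a fit of the immature groups alone (adjusted p = 0.0293). The deoxymugineic acid synthase 1-A gene PH02Gene19117 had 1.05, 1.29 and 1.69 FPKM in variant immature leaves and 0.239, 0.495 and 0.271 FPKM in typical ones, with 1.53 ± 0.72 (adjusted p = 0.0940) and likewise passed without scaling (2.04, adjusted p = 0.0290) and in a fit of the immature groups alone (adjusted p = 0.0385). The other synthase 1-A gene, PH02Gene23447, rose from immature to mature leaves in both plant types, by 1.47 ± 0.46 in the variant (adjusted p = 0.0274) and by 1.90 ± 0.46 in the typical plant (adjusted p = 0.00618).

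**Figure D3:**
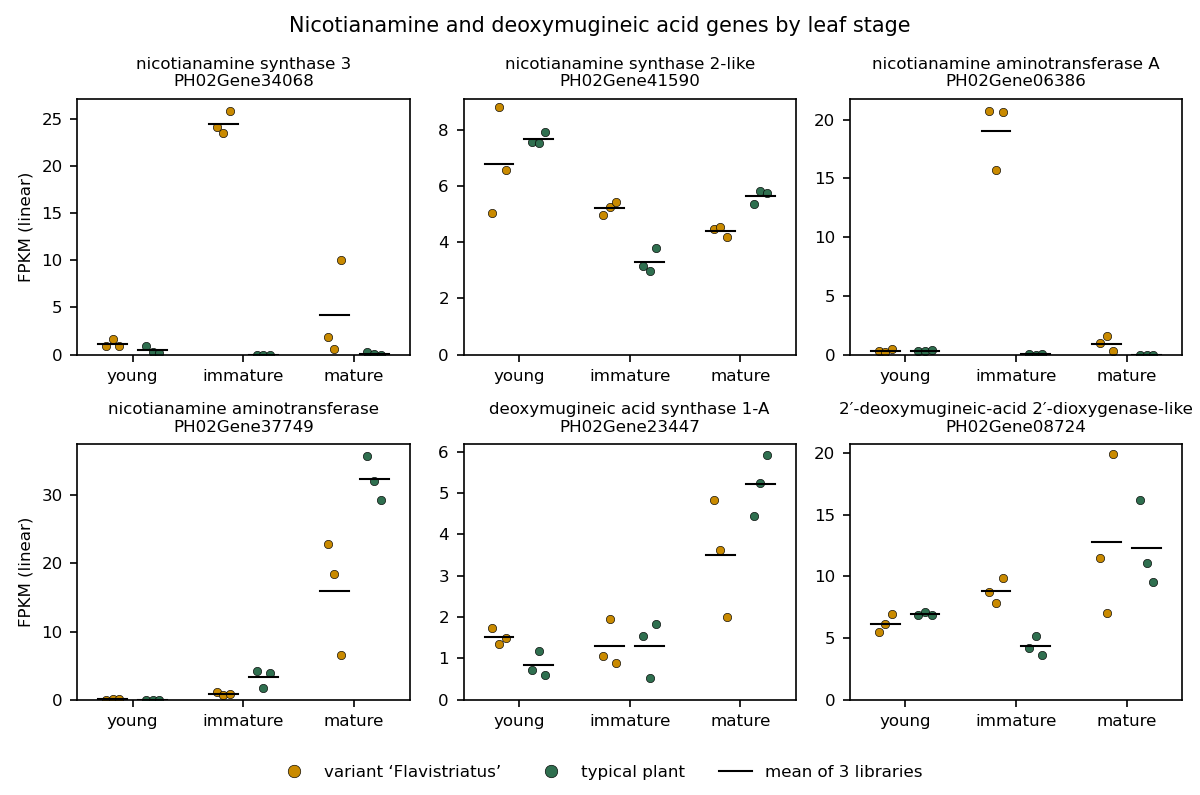
Points are FPKM in single libraries (linear axes that differ between panels) for 6 genes of nicotianamine and deoxymugineic acid, with the variant left of the typical plant at each stage and a bar at the mean of 3 libraries. PH02Gene34068 and PH02Gene06386 stand high in variant immature leaves, at 23.5 to 25.9 and 15.7 to 20.7 FPKM, while PH02Gene37749 is highest in mature leaves of either plant type.

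YSL transporters carry nicotianamine complexes of metals, and in some cases mugineic acid complexes, across membranes. Of the 28 YSL genes 19 were tested, and 1 was called higher and 7 lower in variant immature leaves, while mature leaves had 1 higher and 1 lower. Over all tested genes, 21.7% were called higher and 23.1% lower in variant immature leaves, and 14.9% and 9.65% in mature leaves. Without scaling the immature split was 2 higher and 4 lower and the mature split 1 and 0, so the counts for the family depend on the scaling.

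The most abundant transporter was the YSL6 gene PH02Gene16058 (scaffold 24, 28195906 to 28200713, plus strand), whose relative in rice carries manganese bound to nicotianamine. It had 40.8, 39.9 and 42.1 FPKM in variant immature leaves, against 46.4, 54.0 and 50.7 FPKM in typical ones. The groups did not overlap, and the log2 fold change was -0.75 ± 0.14 (adjusted p = 6.35e-04). In mature leaves it had 48.2, 47.4 and 36.3 FPKM in the variant, against 40.8, 56.3 and 60.6 FPKM in the typical plant, which overlapped, with -0.57 ± 0.14 (adjusted p = 0.00982). Both calls were lost without scaling (-0.23 in immature and -0.23 in mature leaves, adjusted p = 0.204 and 0.239).

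The YSL16 gene PH02Gene27478, whose rice relative serves long-distance transport of copper bound to nicotianamine, was lower in variant immature leaves. It had 4.17, 3.48 and 3.70 FPKM there, against 12.5, 6.92 and 16.2 FPKM in typical immature leaves. Each typical library lay above every variant library, and the log2 fold change was -2.10 ± 0.36 (adjusted p = 2.67e-04). It rose with stage, by 1.96 ± 0.36 to immature (adjusted p = 3.31e-04) and by 1.88 ± 0.35 to mature leaves (adjusted p = 0.00156) in the variant, and by 3.39 ± 0.38 to immature leaves in the typical plant (adjusted p = 1.99e-06). The second YSL16 gene, PH02Gene02018, rose to immature leaves in both plant types, by 4.43 ± 0.90 in the variant and by 3.76 ± 0.86 in the typical plant (adjusted p = 7.08e-04 and 0.00147), and was not called between plant types.

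The YSL13 gene PH02Gene43374 was the one YSL gene called higher in the variant. It had 11.3, 15.1 and 17.8 FPKM in variant immature leaves, against 5.19, 4.48 and 2.98 FPKM in typical ones, with 1.36 ± 0.27 (adjusted p = 9.24e-04). In mature leaves it had 14.8, 11.1 and 17.1 FPKM in the variant, against 4.34, 8.17 and 6.32 FPKM in the typical plant, with 0.88 ± 0.27 (adjusted p = 0.0265). Neither pair of groups overlapped, but the mature call was lost when any of 4 mature libraries was left out, variant library 1 or 3 or typical library 1 or 3 (adjusted p from 0.0620 to 0.0892). A second YSL13 gene, PH02Gene43375, ends 10922 bases before it on scaffold 23 with no other gene between, and had 2.67, 3.09 and 3.14 FPKM in variant immature leaves, against 1.22, 0.958 and 1.60 FPKM in typical ones, without overlap and without a call (0.78 ± 0.34, adjusted p = 0.0782).

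A further 5 YSL genes were called lower in variant immature leaves. The YSL14 gene PH02Gene45692 had 8.05, 7.42 and 6.48 FPKM in the variant, against 12.4, 8.94 and 11.4 FPKM in the typical plant, with -1.03 ± 0.27 (adjusted p = 0.00621), a call lost without scaling (-0.51, adjusted p = 0.113). The YSL8 gene PH02Gene31130 had 1.83, 3.07 and 2.12 FPKM in the variant, against 4.18, 9.50 and 3.24 FPKM in the typical plant, with -1.71 ± 0.45 (adjusted p = 0.00644). The other YSL8 gene, PH02Gene05653, had 0, 0 and 0.0488 FPKM in the variant, against 0.796, 0.734 and 0.350 FPKM in the typical plant, with -5.37 ± 1.28 (adjusted p = 0.00332). In these 3 genes no variant library reached the lowest typical one. The YSL2 gene PH02Gene44952, whose rice relative carries iron and manganese in the phloem, was called lower by 0.71 ± 0.24 on the log2 scale (adjusted p = 0.0265), although its FPKM of 2.77, 1.66 and 2.12 in the variant and 2.503, 2.34 and 2.95 in the typical plant overlapped. A low YSL6 gene, PH02Gene06186, was listed at 0 in variant immature leaves and had 0.351 to 0.960 FPKM in typical ones (adjusted p = 0.00862).

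A further 3 YSL genes were called between stages and not between plant types. The YSL12 gene PH02Gene22608 had 12.6, 16.5 and 4.31 FPKM in variant mature leaves and 1.67, 7.92 and 9.38 FPKM in typical ones, and its groups overlapped at each stage. It was higher in immature than in young leaves by 3.22 ± 0.74 in the variant (adjusted p = 0.00180) and by 4.06 ± 0.77 in the typical plant (adjusted p = 3.21e-04). The YSL10 genes PH02Gene00332 and PH02Gene45323 were found in young leaves, the first at 0.816 to 2.29 FPKM in the variant and 1.33 to 1.62 FPKM in the typical plant, the second at 0.631 to 0.914 FPKM in the variant and 0.444 to 0.805 FPKM in the typical plant. Both were listed at 0 in variant immature leaves (adjusted p = 0.00156 and 7.00e-04 against young leaves) and fell in typical immature leaves by 4.67 ± 1.33 and 4.53 ± 1.18 on the log2 scale (adjusted p = 0.0100 and 0.00617). PH02Gene00332 lies 47 bases from another YSL10 gene, PH02Gene00331, on the same strand of scaffold 24, so these neighbours may be parts of one gene or copies that share reads, which was not tested. The 6 tested YSL genes not described so far, PH02Gene03643, PH02Gene07871, PH02Gene29333, PH02Gene37610 and PH02Gene38154 and the neighbour PH02Gene00331, stayed below 1.1 FPKM in every library and were not called between plant types.

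**Figure D4:**
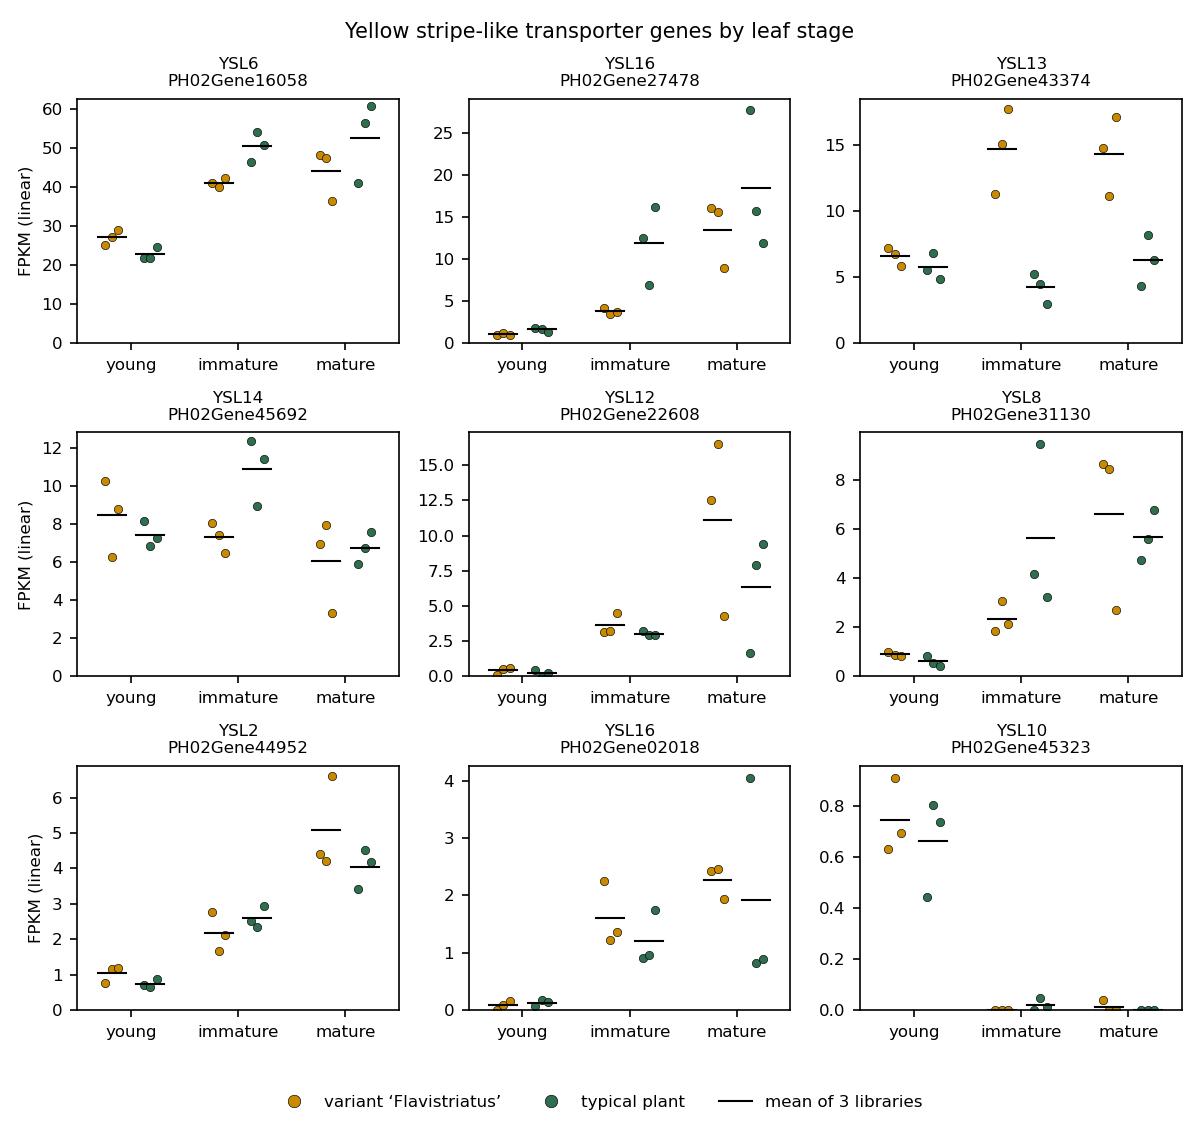
Points are FPKM in single libraries (linear axes that differ between panels) for 9 YSL genes, with the variant left of the typical plant at each stage and a bar at the mean of 3 libraries. The YSL16 gene PH02Gene27478 and the YSL8 gene PH02Gene31130 lie lower in variant than in typical immature leaves, the YSL13 gene PH02Gene43374 lies higher, and the YSL10 gene PH02Gene45323 is near 0 after the young stage.

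Ferric reductases turn ferric into ferrous iron at membranes, and in Arabidopsis ferric reduction oxidase 7 does so at the chloroplast envelope. The one tested gene, PH02Gene02137 (scaffold 24, 38946534 to 38951340, plus strand), is described as a chloroplast ferric reduction oxidase 7-like gene and showed the largest step with leaf age among the abundant members. It had 39.7, 37.5 and 35.3 FPKM in variant immature leaves, against 125, 173 and 253 FPKM in typical ones. In mature leaves it had 69.9, 60.0 and 106 FPKM in the variant, against 535, 529.5 and 531 FPKM in the typical plant. No variant library reached a typical library of its stage, and the log2 fold changes were -2.75 ± 0.27 in immature leaves (adjusted p = 2.51e-06) and -3.09 ± 0.27 in mature leaves (adjusted p = 1.07e-05). In young leaves it had 3.50, 3.22 and 3.99 FPKM in the variant and 3.67, 2.78 and 2.53 FPKM in the typical plant, which overlapped.

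PH02Gene02137 rose with age in both plant types. From young to immature leaves it rose by 3.50 ± 0.27 in the variant (adjusted p = 1.48e-07) and by 6.45 ± 0.32 in the typical plant (adjusted p = 1.25e-09), and these rises differed by -2.96 ± 0.36 (adjusted p = 8.07e-05). From immature to mature leaves it rose by 1.11 ± 0.25 in the variant (adjusted p = 0.00505) and by 1.44 ± 0.25 in the typical plant (adjusted p = 6.53e-04), and for these later rises the difference of -0.34 ± 0.35 was not called (adjusted p = 0.561). The gene held 16.9% ± 7.20 of the members' summed FPKM in variant mature leaves and 65.4% ± 6.09 in typical mature leaves (SD, n = 3 each). The antenna sum was lower in the variant at the same stages and also in young leaves, as given above, and its part in this difference was not tested.

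Vacuolar iron transporters load iron into the vacuole, and 7 of 9 genes were tested. In immature leaves 1 was called higher and 2 lower in the variant, and in mature leaves 2 were called higher. These 3 and 2 of 7 stand beside 44.9% of all tested genes called in immature and 24.5% in mature leaves. The vacuolar iron transporter 1.1 gene PH02Gene16378, the most abundant, had 8.41, 7.498 and 7.87 FPKM in variant immature leaves, against 10.8, 17.005 and 12.6 FPKM in typical ones, with no overlap. The log2 fold change was -1.21 ± 0.35 (adjusted p = 0.0117), and it was lost without scaling (-0.69, adjusted p = 0.101). It rose to immature leaves by 2.24 ± 0.37 in the typical plant (adjusted p = 8.24e-05), against 0.79 ± 0.35 in the variant (adjusted p = 0.0686).

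The vacuolar iron transporter 1.2 gene PH02Gene37366 was lower in the variant in immature leaves and higher in mature leaves. It had 5.88, 5.38 and 7.46 FPKM in variant young leaves and 3.94, 3.21 and 2.81 FPKM in typical young leaves, which did not overlap but were not called (0.86 ± 0.50, adjusted p = 0.832). It had 0.601, 0.795 and 0.689 FPKM in variant immature leaves, against 3.42, 1.82 and 2.51 FPKM in typical ones, with -2.32 ± 0.53 (adjusted p = 0.00335). In mature leaves the order turned, with 0.309, 0.516 and 0.0461 FPKM in the variant and a listed 0 in all typical libraries (adjusted p = 8.56e-04). A second 1.2 gene, PH02Gene48824, begins 101354 bases further along scaffold 3 with 1 gene between. It had 1.38 to 1.97 FPKM in variant young leaves and 0.536 to 1.54 FPKM in typical ones, and was likewise listed at 0 in typical mature leaves, against 0.160, 0.0876 and 0 FPKM in the variant (adjusted p = 0.0347). That call was lost when any of the 3 typical mature libraries or variant mature library 1 or 2 was left out (adjusted p from 0.0620 to 0.101).

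The homologs of the vacuolar transporters were called higher in immature than in young leaves, PH02Gene22355 in the variant (2.52 ± 0.58, adjusted p = 0.00189) and the others in both plant types. The homolog 4-like gene PH02Gene22355 had 2.12, 1.61 and 1.02 FPKM in variant immature leaves, against 0.169, 0.319 and 0.136 FPKM in typical ones. Every variant library lay above the typical ones, with 2.41 ± 0.58 (adjusted p = 0.00375). The homolog 2-like genes PH02Gene02043 and PH02Gene40950 were not called between plant types. PH02Gene02043 was listed at 0 in all 6 young libraries and had 2.53 to 3.67 FPKM in variant and 0.934 to 4.70 FPKM in typical immature leaves (adjusted p = 6.55e-05 and 3.34e-05 against young leaves). PH02Gene40950 rose to immature leaves by 6.23 ± 1.34 in the variant (adjusted p = 0.00111) and by 4.31 ± 1.17 in the typical plant (adjusted p = 0.00502). The last 1.2 gene, PH02Gene30800, was called in no comparison of plant types or stages, and ranged from 0 to 5.24 FPKM.

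Ferritin stores iron in plastids, and both genes carry the description ferritin-1, chloroplastic. The abundant gene PH02Gene47163 had 125, 88.3 and 88.8 FPKM in variant young leaves and 89.9, 76.6 and 68.6 FPKM in typical young leaves. Immature leaves had 256, 265 and 266 FPKM in the variant and 379, 148 and 283 FPKM in the typical plant, and mature leaves had 178, 248 and 144 FPKM in the variant and 154, 53.0 and 39.2 FPKM in the typical plant. The groups overlapped at each stage, and no comparison of plant types was called (0.32 ± 0.44, -0.49 ± 0.44 and 0.85 ± 0.44 in young, immature and mature leaves, adjusted p = 0.174 for the last). In mature leaves without scaling the gene was called higher in the variant (1.22, adjusted p = 0.0391).

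PH02Gene47163 rose from young to immature leaves by 1.48 ± 0.45 in the variant (adjusted p = 0.0113) and by 2.29 ± 0.46 in the typical plant (adjusted p = 5.49e-04). It then fell by 1.76 ± 0.45 on the log2 scale in the typical plant (adjusted p = 0.00892), against a fall by 0.41 ± 0.44 in the variant that was not called (adjusted p = 0.520), and the difference between these changes was not called either (1.34 ± 0.63, adjusted p = 0.150). The second ferritin, PH02Gene17495, lay between 16.5 and 52.3 FPKM in all libraries and was called in none of the comparisons of plant types or stages. In both ferritins typical mature library 1 was the highest of its group, at 154 and 52.3 FPKM.

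The co-chaperone HscB, which helps pass iron-sulfur clusters to proteins in mitochondria, was encoded by PH02Gene25579. It had 2.39, 2.68 and 3.04 FPKM in variant immature leaves, against 1.57, 2.05 and 1.55 FPKM in typical ones, without overlap and without a call (0.20 ± 0.27, adjusted p = 0.591). Mature leaves had 2.65, 2.09 and 3.81 FPKM in the variant, against 1.53, 1.64 and 1.53 FPKM in the typical plant, again without overlap and without a call (0.53 ± 0.28, adjusted p = 0.174). Without scaling it was called higher in the variant in immature (0.71, adjusted p = 0.0488) and mature leaves (0.88, adjusted p = 0.0280), and limma on FPKM with a pseudocount of 1 called both as well. It rose from young to immature leaves in the variant by 0.98 ± 0.28 (adjusted p = 0.00764), against 0.61 ± 0.28 in the typical plant (adjusted p = 0.0687).

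**Figure D5:**
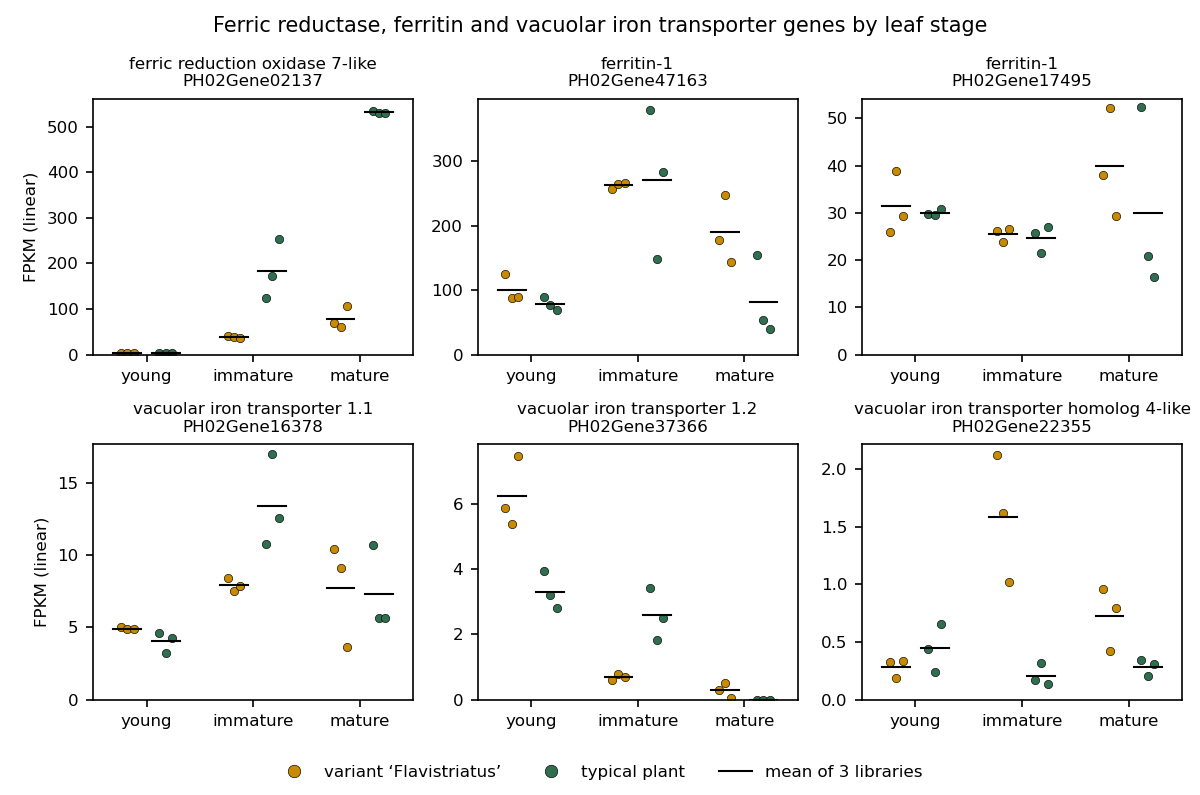
Points are FPKM in single libraries (linear axes that differ between panels) for the ferric reductase, both ferritins and 3 vacuolar iron transporters, with the variant left of the typical plant at each stage and a bar at the mean of 3 libraries. The ferric reductase PH02Gene02137 stays at or below 106 FPKM in the variant while typical mature libraries lie between 529.5 and 535 FPKM, and the ferritin groups overlap at each stage.

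Across stages, more members rose than fell when leaves passed from young to immature. In the variant 17 of 40 were called higher and 6 lower in immature than in young leaves, beside 27% and 28.6% of all tested genes, and in the typical plant 15 were higher and 5 lower, beside 29.2% and 30.4%. The 11 members higher in both plant types were the ferric reductase PH02Gene02137, the ferritin PH02Gene47163, the aminotransferase PH02Gene37749, 6 YSL genes and 2 vacuolar homologs. How many of all tested genes rose in both plant types was not counted, so this overlap cannot be read as particular to the members. The nicotianamine synthase PH02Gene34068 and the aminotransferase PH02Gene06386 were called in opposite directions, and both were absent or nearly so in typical immature leaves. The median log2 fold change was 1.12 in the variant and 0.61 in the typical plant, against 0.00 and -0.02 over all genes. Without scaling the typical split was 12 higher and 7 lower.

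From immature to mature leaves 7 members were called higher and 1 lower in the variant, beside 15.8% and 11.6% of all tested genes. In the typical plant 5 were called higher and 6 lower, beside 13.2% and 16.2%. The 3 genes higher in both were PH02Gene02137, the deoxymugineic acid synthase PH02Gene23447 and the aminotransferase PH02Gene37749. The aminotransferase PH02Gene06386 was called lower in both, although in the typical plant its level was already very low in immature leaves. The 6 that were lower in typical mature leaves were the ferritin PH02Gene47163, the vacuolar iron transporters PH02Gene37366 and PH02Gene48824, the aminotransferases PH02Gene06386 and PH02Gene37152 and the YSL14 gene PH02Gene45692.

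The difference between plant types itself changed with stage in 15 of 40 members between young and immature leaves, beside 26.3% of all tested genes. The variant rose relative to the typical plant in 4 of these members and fell in 11. Over all 37595 tested genes it rose in 4681 and fell in 5219. Without scaling the members split into 6 and 5. Between immature and mature leaves the difference changed in 6 members, 4 with a rise and 2 with a fall, beside 17.4% of all tested genes. Over all tested genes these were 4160 rises and 2383 falls. The comparisons of plant types and of stages share libraries with these interactions.

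Other genes of the pathway were read from lists of descriptions. Their counts in variant immature leaves stand beside 21.7% of all tested genes called higher and 23.1% called lower, and those in mature leaves beside 14.9% and 9.65%. Among 28 tested metal transporters outside the members, 11 were called higher and 4 lower in variant immature leaves, with a median log2 fold change of 0.18 (without scaling 14 and 1). In mature leaves 6 were called higher and 1 lower (without scaling 12 and 1). The Nramp5 gene PH02Gene20303, whose rice relative takes up manganese, had 0.658, 0.581 and 0.960 FPKM in variant immature leaves, against 5.12, 9.26 and 14.3 FPKM in typical ones (-4.16 ± 0.79, adjusted p = 6.36e-04). In mature leaves it had 3.85, 3.37 and 0.0439 FPKM in the variant, against 70.4, 56.1 and 56.7 FPKM in the typical plant (-4.96 ± 0.80, adjusted p = 6.36e-04), again with no overlap. A second Nramp5 gene, PH02Gene04947, was not called between plant types in mature leaves (0.10 ± 0.28, adjusted p = 0.844). In variant immature leaves it was lower by 0.94 ± 0.29 on the log2 scale (adjusted p = 0.0159). Its FPKM there of 1.98, 3.51 and 2.77 in the variant and 4.43, 4.67 and 2.57 in the typical plant overlapped. The Nramp3 gene PH02Gene32309 was higher by 2.94 ± 0.46 (adjusted p = 1.47e-04) and the Nramp6-like gene PH02Gene37710 by 2.46 ± 0.54 (adjusted p = 0.00179).

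Enzymes of the methionine cycle, which supply and recycle the substrate of nicotianamine synthase, were mostly lower. Of 22 tested, 1 was called higher and 17 lower in variant immature leaves, with a median of -1.57, and 0 higher and 9 lower in mature leaves. Without scaling these were 3 and 15 in immature and 1 and 7 in mature leaves. The largest falls were in the acireductone dioxygenase genes PH02Gene23027, at -3.06 ± 0.28 (adjusted p = 1.54e-06), and PH02Gene16949, at -2.95 ± 0.36 (adjusted p = 1.64e-05), which act in methionine salvage. The methylthioribose-1-phosphate isomerase PH02Gene46228, of the same salvage route, was the one higher gene, at 1.96 ± 0.40 (adjusted p = 0.00104).

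Among 11 tested genes of iron sensing, 0 were called higher and 4 lower in variant immature leaves, and without scaling 4 and 3, beside the 44.9% of all tested genes called in either direction. In mature leaves 1 was called higher and 0 lower, and without scaling 3 and 0, beside 24.5% of all tested genes. The ILR3 genes PH02Gene15304 and PH02Gene31504, whose Arabidopsis relative is a transcription factor of the iron response, were lower in variant immature leaves by 1.80 ± 0.18 and 1.22 ± 0.13 on the log2 scale (adjusted p = 2.94e-06 and 4.48e-06). Neither was called in mature leaves (-0.43 ± 0.17 and -0.01 ± 0.12, adjusted p = 0.0789 and 0.980). Among 21 tested genes of iron-sulfur assembly, 0 were called higher and 6 lower in variant mature leaves beside the same 24.5%, and without scaling 1 and 3. In variant immature leaves 4 were called higher and 4 lower beside the same 44.9%, and without scaling 11 and 3. The frataxin gene PH02Gene29646, a mitochondrial iron protein, was higher by 2.62 ± 0.46 (adjusted p = 3.30e-04) and the NifU-like scaffold gene PH02Gene30079 by 1.25 ± 0.28 (adjusted p = 0.00205). The sufE-like gene PH02Gene29857, an activator of sulfur release described as chloroplastic or mitochondrial, was at -1.74 ± 0.24 (adjusted p = 4.36e-05). The cysteine desulfurase PH02Gene44201, which frees the sulfur and is described as mitochondrial, was at -1.52 ± 0.40 (adjusted p = 0.00655). Its FPKM of 1.23, 3.61 and 1.12 in the variant and 4.31, 3.45 and 4.73 in the typical plant overlapped. In mature leaves this desulfurase was not called (-0.25 ± 0.39, adjusted p = 0.697).

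The list of genes described by ferredoxin or haem also takes in ferredoxin-dependent enzymes and a heme oxygenase. In variant mature leaves the list counted 1 higher and 10 lower of 28, and without scaling 4 higher and 8 lower. It counted 2 higher and 16 lower of 28 in variant immature leaves, with a median of -0.997, and without scaling 4 higher and 11 lower. Ferredoxin-6 PH02Gene44826 was higher by 2.97 ± 0.65 (adjusted p = 0.00177), and heme oxygenase 1 PH02Gene39434, which opens the haem ring, by 0.80 ± 0.23 (adjusted p = 0.0104). The ferredoxin-dependent glutamate synthase PH02Gene38234 had 31.3, 33.1 and 31.8 FPKM in the variant, against 155, 101 and 264 FPKM in the typical plant (-2.89 ± 0.40, adjusted p = 5.48e-05). The diphosphate synthase PH02Gene16759, an iron-sulfur enzyme of plastid isoprenoids, was at -5.71 ± 0.95 (adjusted p = 2.27e-04). All of these medians stand beside -0.04 over all tested genes.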

How the data were processed

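RNA of 18 leaf samples in 6 groups of 3 was made into cDNA with an oligo(dT) SMARTer kit and sequenced, per the labels' protocols, which record no strand step. Tools listed, with no version, are cutadapt, FastQC and Salmon, per the submitters' processing notes. No genome build is given in the sources used here, nor an annotation, and scaffold positions are those of the deposited table. The authors deposited estimated counts per gene and FPKM values per gene. The estimated counts were rounded to whole numbers and tested with edgeR 4.0.16 in R 4.3.3 (TMM scaling, filterByExpr at min.count 10 and min.total.count 15, 6 group means, quasi-likelihood test, 12 residual degrees of freedom). FPKM were used for levels and sums. Alternatives used limma 3.58.1 on log2(FPKM + 1) and log2(FPKM + 0.1), DESeq2 1.42.0, other scaling, filters and library sets. The fits were tested on simulated data.

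Named with values were the tested members of the nicotianamine, deoxymugineic acid and ferritin classes, in each other class the 4 with the highest mean FPKM, in each comparison of plant types the 6 called members with the largest fold change in each direction, and members with a mean of 1 FPKM or more in one plant type and 0 in all libraries of the other. From each list of other pathway genes the 2 called genes with the largest change in each direction in immature leaves were named. Members of the report outside this rule were named after their values were seen. The members and lists were chosen with earlier results of these data known. From the list of iron sensing genes, 5 lipid transfer-like proteins that a search word had matched by its letters were left out after their values were seen. Interactions compare a change between stages in the variant with that in the typical plant.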

Additional observations from a re-analysis of the deposited data

Results flagged for a closer look

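Each of the following results drew attention because the effect of plant type itself differed between stages in the edgeR interaction test, and no explanation was weighed. Between young and immature leaves the adjusted p was 8.07e-05 for the ferric reductase PH02Gene02137, 6.69e-05 for the aminotransferase PH02Gene06386, 0.00959 for the aminotransferase PH02Gene37749 and 0.00223 for the nicotianamine synthase PH02Gene34068. Among YSL genes it was 0.00311 for PH02Gene16058, 0.0443 for PH02Gene27478, 0.0282 for PH02Gene43374, 0.0330 for PH02Gene45692, 0.0458 for PH02Gene05653 and 0.0317 for PH02Gene06186. Among vacuolar iron transporters it was 0.00671 for PH02Gene37366, 0.0119 for PH02Gene22355 and 0.0425 for PH02Gene16378.

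Between immature and mature leaves the adjusted p was 6.45e-04 for PH02Gene37366 and 0.0233 for PH02Gene48824, both vacuolar iron transporters. It was 0.0436 for the nicotianamine synthase PH02Gene34068, 0.0202 for the nicotianamine synthase PH02Gene41590 and 0.0380 for the YSL8 gene PH02Gene05653.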

How the results depend on the processing

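The counts of called members moved by more than 1.5 times under these alternatives, and the cause was not tested unless the setting itself leaves fewer samples. Shares of all tested genes called under each alternative are not set beside these counts. A moved count therefore cannot be read as particular to the members, and the same holds for the splits without scaling given above. For young leaves DESeq2 called 1 member, against 0. For immature leaves 6 were called when libraries within 15 times the sampling noise were summed, against 16. For mature leaves DESeq2 called 13, a fit of the groups compared 2 and the summed libraries 3, against 8. From immature to mature leaves of the variant, limma called 14 (pseudocount 1) or 13 (pseudocount 0.1), the summed libraries 1, and 14 were called with variant mature library 3 and typical mature library 1 left out together, against 8. In the typical plant the summed libraries gave 7, against 11. For the interaction of young and immature leaves the summed libraries gave 3, against 15. For that of immature and mature leaves the groups compared gave 3, the summed libraries 0, and the 2 libraries left out together 16, against 6. The summing joined the 3 variant immature libraries into 1, typical young libraries 2 and 3, and typical mature libraries 2 and 3, which left 14 libraries. Its counts that involve variant immature leaves therefore rest on 1 summed library in that group. The summed and the paired omissions were chosen after seeing the data.

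Leaving out 1 library at a time gave 14 to 19 members in immature and 6 to 10 in mature leaves, 20 to 29 and 18 to 23 from young to immature leaves (variant, typical), 6 to 13 and 9 to 13 from immature to mature leaves, and 8 to 15 and 3 to 13 for the interactions, with 13 without variant mature library 3. The ferritin PH02Gene17495 turned from 0.23 to -0.54 from immature to mature leaves of the typical plant when both libraries were left out (adjusted p = 0.0334).

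Deviations of same-numbered libraries from their group means correlated weakly over all tested genes, with r from -0.0985 to 0.155. This cannot show whether the numbers pair the samples, as pairing could touch few genes, and the labels name no pairing. With the replicate block 3 members were called in the interaction of immature and mature leaves, and no other count moved by over 1.5 times. Depth limits the low genes: a library was at 0 in 3.73% of cases where both others of its group had 20 to 50 counts.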
